A study of Drosophila melanogaster with 16 samples.

Results

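Mitochondria carry their own ribosome, and these data hold the RNA levels of the nuclear genes for its proteins in Drosophila melanogaster larvae. The genes were taken by symbol (mRpL for the large subunit or mRpS for the small subunit, followed by a number) and had to average 10 normalised counts or more across 16 libraries, which gave 72 genes of the 16727 in the table. By symbol they are 46 large-subunit and 26 small-subunit genes, although mRpS18A and mRpS30 sit in the large subunit of the human mitochondrial ribosome, and all 72 are among the 7824 genes that passed the same minimum and were tested. RNA came from female larvae at the transition from the third larval instar to the prepupa, reared at 25 degrees. The tissue was larval fat body together with the developing ovaries embedded in it, or larval fat body alone. The animals carried the knock-out allele delta1 of dLmx1a, a LIM homeodomain transcription factor gene, either on both copies of the chromosome or over the balancer TM3-GFP, and were told apart by the GFP of the balancer. Each of the 4 combinations has 4 libraries: fat body with ovaries labelled homozygous, fat body with ovaries heterozygous, fat body labelled homozygous, and fat body heterozygous. All groups carry delta1 at least once, so no library is free of the allele, and only the heterozygotes carry the balancer chromosome. The labels do not say that the 4 libraries of a group came from separate animals or collections, so p-values speak only of variation among these libraries.

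The mitochondrial ribosome translates the few proteins that the mitochondrial genome encodes, which are subunits of the respiratory chain and of ATP synthase. All of its proteins are encoded in the nucleus, translated in the cytosol and imported, whereas its RNAs come from the mitochondrial genome. Many of its proteins descend from those of the bacterial ribosome, and others were added in the mitochondrial lineage. Larval fat body is the storage and metabolic organ of the larva, with large polyploid cells, and the larval ovary is a small organ of dividing germ cells and somatic cells.

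The libraries held 19022106 to 32755588 reads on genes, with 10105 to 10970 genes detected, and a mitochondrial ribosomal gene had between 17 and 871 reads in a library. Genes for 6 fat body proteins (the larval serum proteins Lsp1alpha, Lsp1beta, Lsp1gamma and Lsp2, and Fbp1 and Fbp2) took 49.7% to 58.7% of all normalised counts. dLmx1a, listed as CG32105, had 564, 671, 742 and 682 normalised counts in the libraries with ovaries labelled homozygous, against 578, 518, 723 and 649 in the heterozygous ones. Its log2 fold of 0.11 ± 0.75 (limma standard error, adjusted p = 0.984) does not separate the genotypes, whose libraries overlap. This standard error is pooled over all 16 libraries, with fat body counts near 0 among them. It therefore does not measure the spread with ovaries, where the means were 665 ± 74.1 and 617 ± 88.7 (SD, n = 4 each). The sources used here do not say which bases delta1 lacks, so a count over the whole gene does not check the labels. In fat body alone dLmx1a stood at 0 to 4.59 in libraries labelled homozygous and 0 to 23.5 in heterozygous ones.

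Summed over the 72 genes, the level was 13917, 10429.6, 11945 and 11770 normalised counts in fat body with ovaries labelled homozygous. It was 11976, 10314, 11243 and 11171 in the heterozygous libraries with ovaries. Fat body labelled homozygous had 14449, 8446, 9511 and 9407, and heterozygous fat body had 11589.5, 9413, 9230.1 and 9465. The library numbered 1 was the highest of its group in all 4 groups, and the remaining 3 libraries of each fat body group, at 8446 to 9511, lay below every library with ovaries. The means were 12016 ± 1437 with ovaries labelled homozygous, 11176 ± 680.2 with ovaries heterozygous, 10453 ± 2707 in fat body labelled homozygous and 9924 ± 1115 in heterozygous fat body (SD, n = 4 libraries each). The RNA sums by symbol kept a nearly fixed proportion: genes with mRpS symbols made up 32.8% to 34.5% of the sum in each of the 16 libraries. That part includes mRpS18A and mRpS30, and other splits of the 72 genes were not summed for comparison.

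**Figure D1:**
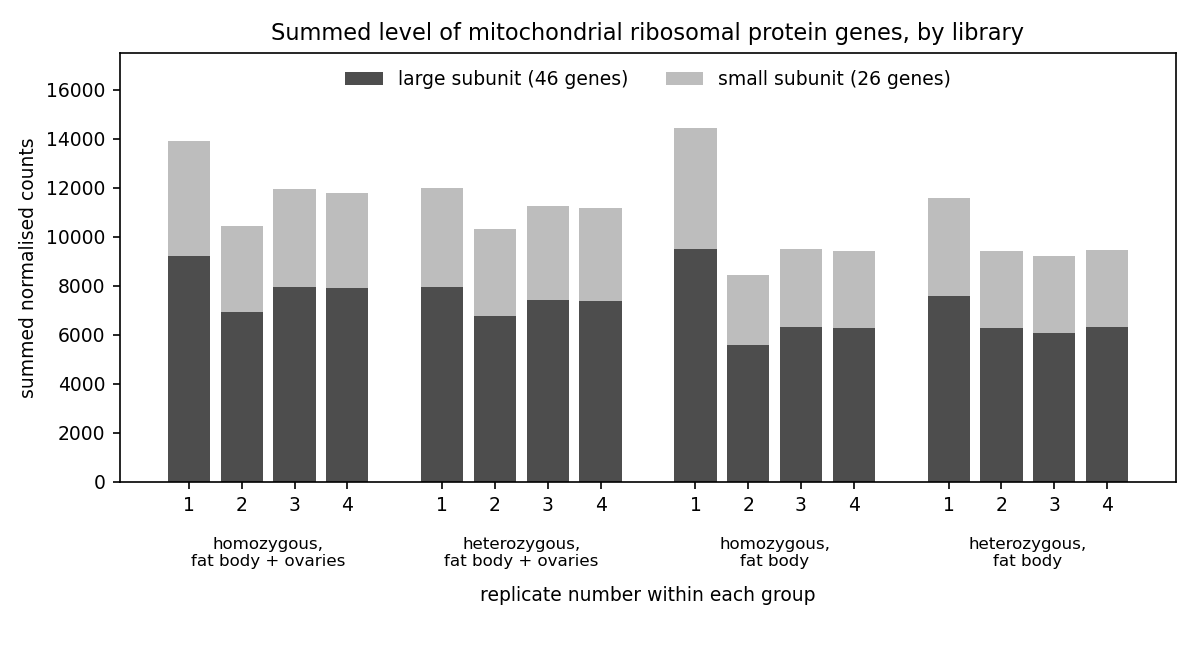
Summed normalised counts (vertical axis) of the 46 large-subunit genes (dark) and 26 small-subunit genes (light) in each of the 16 libraries, by group and replicate number. The tallest bar of each group is the library numbered 1, up to 14449 in fat body labelled homozygous, and the light part stays between 32.8% and 34.5% of each bar.

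As CPM, counts relative to the library total, the summed level was 533 ± 77.1 with ovaries labelled homozygous and 518 ± 42.6 with ovaries heterozygous. The fat body values were 345 ± 102 for the libraries labelled homozygous and 351 ± 43.2 for the heterozygous ones (SD, n = 4 each). With the 6 fat body genes left out of the total, libraries with ovaries stood at 1129.9 ± 180 (labelled homozygous) and 1038.5 ± 76.5 (heterozygous), and fat body alone at 806 ± 268 (labelled homozygous) and 772 ± 128 (heterozygous). The order of the tissues was thus the same on the 3 scales, while the gap was wider in CPM than in normalised counts.

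Levels differed widely between members. Per kilobase of coding sequence and averaged over the 16 libraries, the median member stood at 191 normalised counts, with quartiles of 155 and 254 and a range of 58.1 to 703. The medians were 219 for the large-subunit and 178 for the small-subunit genes, and 192 for the 44 genes with bacterial counterparts against 188 for the 28 specific to mitochondria. The 4 highest per kilobase were mRpL33 at 703, mRpL28 at 693, mRpL22 at 551 and mRpL52 at 497, all large-subunit genes. mRpL33, mRpL28 and mRpL22 are counterparts of the bacterial proteins of those numbers, and in bacteria L22 lines the tunnel through which the new chain leaves. The 4 lowest per kilobase were mRpS24 at 58.1, mRpL13 at 88.3, mRpL11 at 106 and mRpS21 at 106. In bacteria L11 belongs to the base of the stalk that receives elongation factors.

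Some of the low values concern genes that share exons with a neighbour. Exons of 42 of the 72 genes overlap those of another gene, and in 4 the overlap covers over 30% of the exon bases. These are mRpS24 (55.3% shared with TBC1d7 on the opposite strand), mRpS21 (48.0% with CG8870, opposite strand), mRpL13 (35.2% with CG10602, same strand) and mRpS14 (31.99% with Naa15-16, opposite strand). The sources used here do not give the strand setting of the counting, so reads of these pairs cannot be told apart and their levels are uncertain. mRpS21 and mRpS24 are also the 2 members nearest the minimum of 10, with means of 27.8 and 28.7. The only matching symbol outside it was mRpL53, listed at 0 in every library. All 829 of its exon bases, 100%, are shared with CG33155 on the same strand. Reads of mRpL53 thus cannot be assigned to it alone, and the 0 sets no upper limit on its level. Proteins of the mitochondrial ribosome known under other names (tko, bonsai and Rlb1) are not among the 72, and none of the 3 passed the threshold in any comparison.

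The rank order of levels was similar in all groups. Across the 72 genes, which are not independent replicates and share their libraries, Spearman's rho between group means ran from 0.846 to 0.944. Members differed in how steady they were between libraries of one group. The within-group SD on the log2 scale had a median of 0.31 and ran from 0.08 for mRpL28 to 0.59 for mRpS11, a small-subunit protein that in bacteria helps form the platform where mRNA leaves. mRpS5 (0.11), mRpS9 (0.11) and mRpS7 (0.12) followed mRpL28 at the steady end, and mRpL55 (0.58) and mRpL12 (0.55) stood beside mRpS11 at the other.

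**Figure D2:**
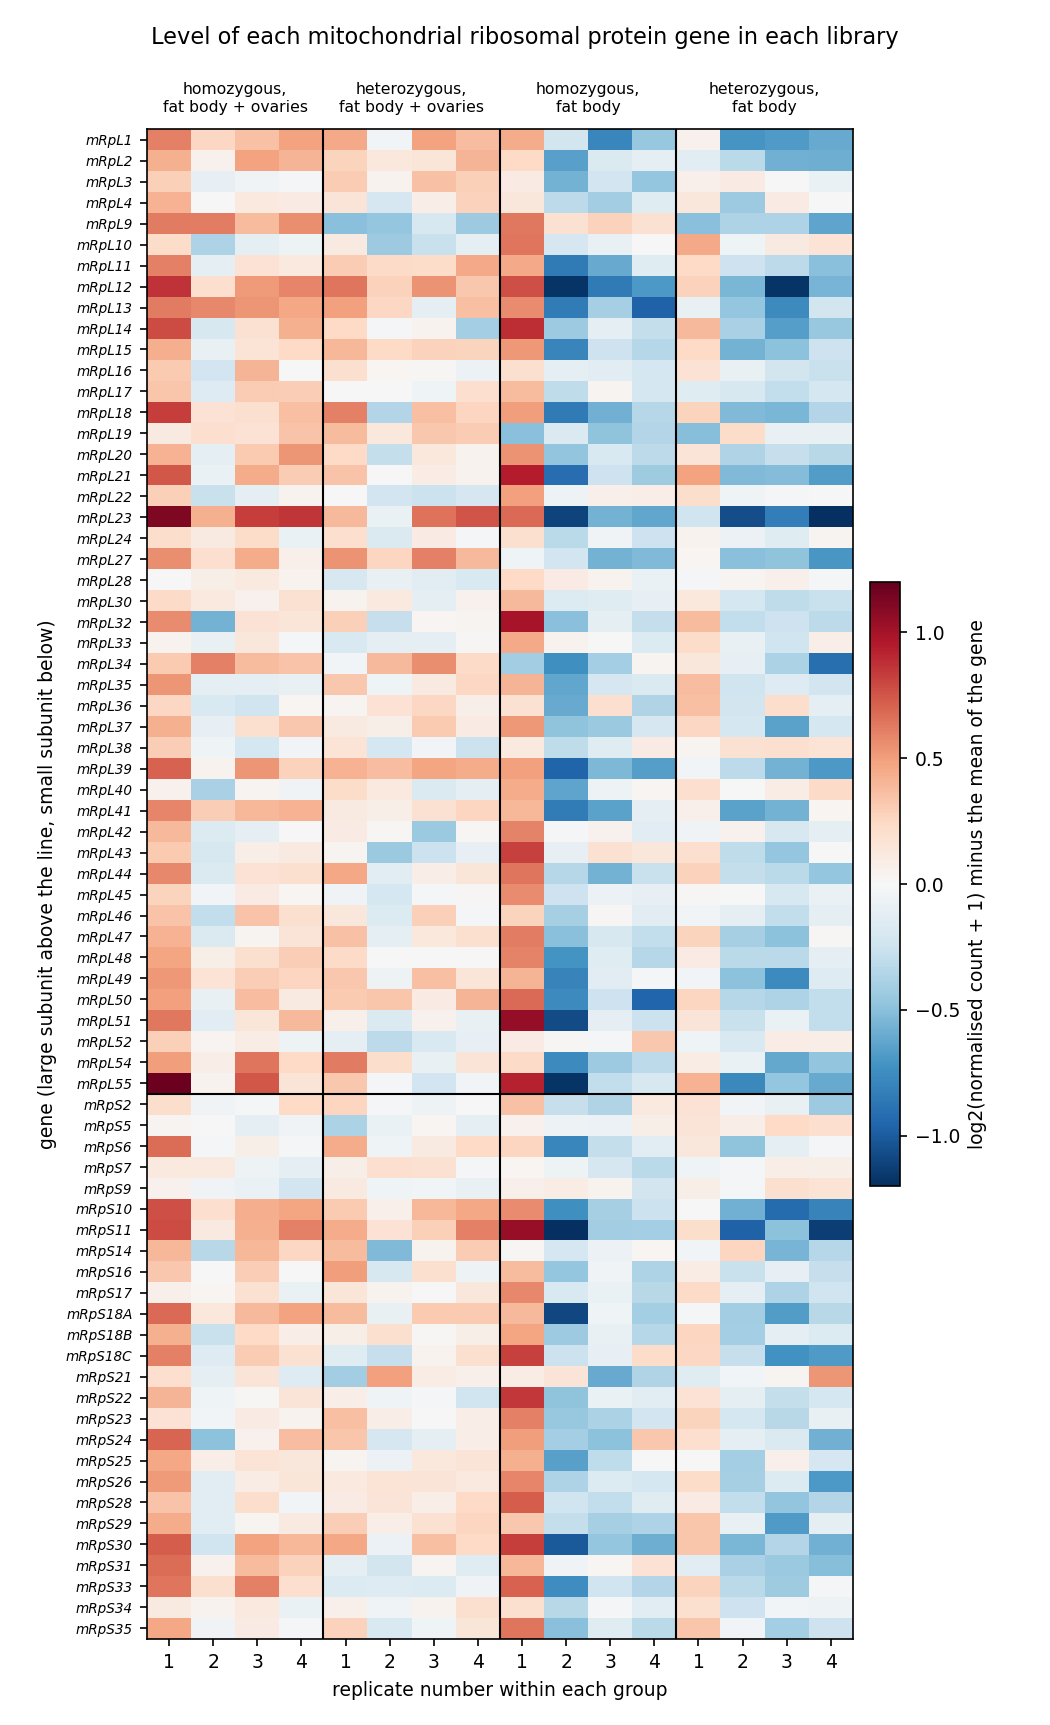
Level of each of the 72 genes (rows, large subunit above the line) in each of the 16 libraries (columns, by group and replicate number), as log2(normalised count + 1) minus the mean of the gene over the 16 libraries. The columns of replicate 1 are reddest in both groups labelled homozygous. The rows of mRpL28, mRpS5 and mRpS9, with within-group SDs of 0.08, 0.11 and 0.11, are nearly white.

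Levels of these genes ran high in the libraries numbered 1, most in fat body and least in heterozygous libraries with ovaries. In fat body labelled homozygous 69 of the 72 genes were above the mean of replicates 2 to 4 in replicate 1, by a median of 0.74 log2 units, and 64 (88.9%) had their highest value there. Among all tested genes 39.4% were highest in that library. In heterozygous fat body 63 were above, by a median of 0.45, and 58 (80.6%) were highest in replicate 1, against 32.1% of all genes. With ovaries 69 of 72 were above in the libraries labelled homozygous (median 0.33, 81.9% highest, 28.7% of all genes) and 51 in the heterozygous ones (0.13, 51.4%, 26.5% of all genes). The labels give the number as a replicate number and name no batch or date.

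The excess was uneven among members. In fat body labelled homozygous replicate 1 mRpS11 stood at 144 normalised counts, against 27.9 to 51.9 in the others, mRpL12 at 219 against 55.8 to 78.9, and mRpL51 at 248 against 55.8 to 110. mRpL19 was an exception, with 145 in that library against 147 to 182. mRpL19 was also the lowest in replicate 1 of heterozygous fat body, at 144 against 193 to 240.

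Some other lists were also high in replicate 1, each given as the median difference from the other libraries. The 66 respiratory chain genes were above the other libraries by a median of 0.42 with ovaries labelled homozygous, 0.08 with ovaries heterozygous, 0.62 in fat body labelled homozygous and 0.24 in heterozygous fat body. For 12 genes of mitochondrial import and folding the medians were 0.46, 0.14, 0.86 and 0.50. In the same order of groups, 19 mitochondrial translation and transcription factors had 0.03, 0.08, 0.58 and 0.43, and 15 mitochondrial aminoacyl-tRNA synthetases had 0.18, 0.06, 0.49 and 0.26. The 83 cytosolic ribosomal protein genes had 0.10, 0.08, -0.01 and -0.06. Outside these, 11 cell cycle genes had -0.07, 0.07, 0.65 and 0.71, 9 muscle genes 0.80, -0.02, 0.54 and -0.02, and 9 somatic ovary genes -0.27, 0.07, -0.59 and -0.78. Hemocyte markers (blood cell genes such as Hml and PPO2) had medians over 7 genes of 1.4007, 0.55, 1.01 and 1.11. In heterozygous libraries with ovaries 1 of these 7 was highest in replicate 1, and their sum was highest in replicate 2, at 2019 against 1552 in replicate 1. Their summed level ran from 803 to 2231 normalised counts with ovaries labelled homozygous, 739 to 2019 with ovaries heterozygous, 498 to 1424 in fat body labelled homozygous and 399.7 to 1308 in heterozygous fat body. The lowest of these markers, lz, was at 0 in at least 1 library of 3 of the groups. Gut markers summed to at most 36.4 in any library. The part of hemocytes or other cells in the levels of the mitochondrial ribosomal genes was not tested.

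A second library stood apart in ovary markers. Of 21 germline and somatic ovary markers 16 were highest in replicate 2 among the 4 heterozygous fat body libraries. There vas, a germline RNA helicase, stood at 34.8 normalised counts against 5.37 to 9.43 in the others, piwi at 54.2 against 0 to 4.30, and bab2 at 70.6 against 5.66 to 6.68. dLmx1a was at 23.5 in that library and 0 to 2.83 in the others. Without it the tissue comparison in heterozygotes again had 7 members higher and 1 lower, with a median log2 fold of 0.21.

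The first comparison is between genotypes, which the study makes to ask what dLmx1a does in the developing ovary. With ovaries present, mRpL9 rose in the libraries labelled homozygous, to 1.92 times its heterozygous level, and no other of the 72 genes passed the threshold. mRpL9 encodes the counterpart of bacterial L9, a protein of the large subunit. It lies on chromosome arm 3R at 15330738 to 15331588 on the plus strand (dm6, FBgn0038319), with a coding length of 744 bases. It had 209, 207, 177 and 200 normalised counts in the libraries labelled homozygous, against 95.5, 98.0, 119 and 100.1 in the heterozygous ones. The lowest library labelled homozygous lay well above the highest heterozygous one. The means were 198 ± 14.7 and 103 ± 10.6 (SD, n = 4 each), and the log2 fold was 0.94 ± 0.12 (limma standard error, adjusted p = 0.000433).

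In fat body alone mRpL9 rose as well. It had 211, 154, 165 and 154 normalised counts in the libraries labelled homozygous, against 95.3, 104, 105 and 87.0 in the heterozygous ones. Again the groups did not overlap. The means were 171 ± 27.3 and 97.9 ± 8.43 (SD, n = 4 each), with a log2 fold of 0.79 ± 0.12 (adjusted p = 0.00124). The 2 tissues share no library, but the standard error is pooled over all 16 libraries. The difference between the 2 folds was 0.15 ± 0.17 (adjusted p = 0.99995), so a tissue difference in the genotype fold was not detected. mRpL9 passed the threshold in all 21 alternative settings of either tissue, with log2 folds of 0.88 to 1.01 with ovaries and 0.67 to 0.84 in fat body.

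The second gene past the threshold in fat body was mRpS31, a small-subunit protein specific to mitochondria. It lies on arm 3L at 16005193 to 16006599 on the plus strand (dm6, FBgn0036557), with a coding length of 1128 bases. It had 220, 163, 171 and 189 normalised counts in fat body labelled homozygous, against 152, 128, 123 and 117 in heterozygous fat body. The groups did not overlap, although the heterozygous library numbered 1 came close. The means were 186 ± 25.6 and 130 ± 15.3 (SD, n = 4 each), and the log2 fold was 0.51 ± 0.14 (adjusted p = 0.0434). With ovaries it had 268, 173, 218 and 202 normalised counts in the libraries labelled homozygous, against 155, 144, 171 and 152 in the heterozygous ones, again without overlap. There the log2 fold of 0.45 ± 0.14 missed the threshold (adjusted p = 0.117), and passed it with the replicate number as a block over all 16 libraries (adjusted p = 0.0196). With the block over the compared groups alone it missed again (adjusted p = 0.0518).

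**Figure D3:**
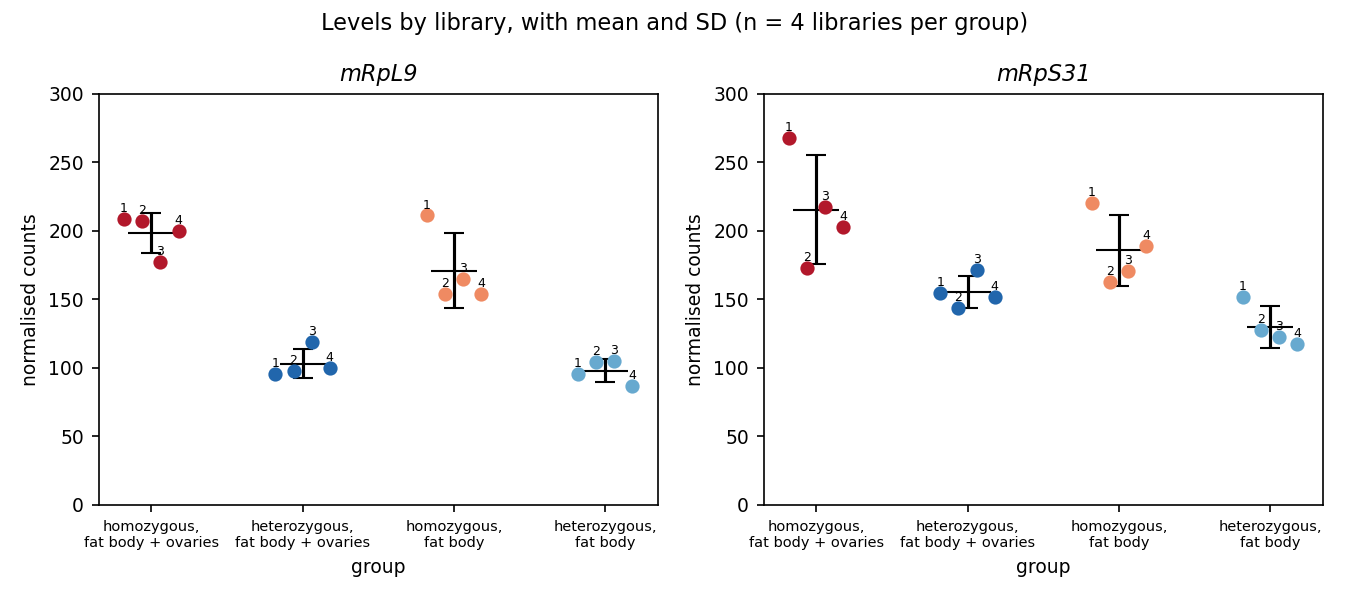
Normalised counts (vertical axis) of mRpL9 (left) and mRpS31 (right) in each library of the 4 groups. Points carry their replicate number, and bars show the mean and SD of 4 libraries. mRpL9 in libraries labelled homozygous (154 to 211) lies above every heterozygous library (87.0 to 119), while mRpS31 shows a smaller gap within each tissue.

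The call for mRpS31 in fat body held in 9 of 21 alternatives. It was lost without fat body labelled homozygous replicate 1 (adjusted p = 0.0923), 3 (0.0713) or 4 (0.0737), and without heterozygous fat body replicate 2 (0.0916), 3 (0.114) or 4 (0.125).

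No other mitochondrial ribosomal gene passed the threshold between genotypes in the main test. With ovaries 1 of 72 was higher and 0 lower in the libraries labelled homozygous, where 0.92% of all tested genes were higher, 1.19% lower and 2.11% either. At an unadjusted p under 0.05 there were 5, and edgeR also called 1 higher and 0 lower. With the block 2 of 72 were higher and 0 lower, beside 4.44% and 4% of all genes (8.44% in either direction). In fat body alone 2 of 72 were higher and 0 lower, beside 2.29% and 3.11% of all genes (5.39% in either direction), and 3 had an unadjusted p under 0.05. With the block mRpL43 (log2 fold 0.40, standard error 0.11 in the blocked fit, adjusted p = 0.0299) was called too, beside 7.67% of all genes higher and 7.39% lower (15.1% in either direction). The median log2 fold of the 72 was 0.10 with ovaries and 0.05 in fat body, and that of all genes was 0.00 in both. With ovaries the members' median was 0.02 without replicate 1 labelled homozygous, 0.04 without heterozygous replicate 2 and 0.17 without replicate 2 labelled homozygous. In fat body the members' median was -0.17 without replicate 1 labelled homozygous and -0.06 when all libraries were scaled to equal totals, a scaling that took the median of all genes to -0.11. Without that library mRpL3, at a log2 fold of -0.31 ± 0.13 with all libraries, passed the threshold on the lower side.

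Counting genes whose libraries do not overlap gave 6 members higher and 0 lower with ovaries, against 5.89% and 6.2% of all genes. They were mRpL9, mRpS31, mRpL28, mRpL52, mRpS33 and mRpL41. mRpL28 had 629, 659, 679 and 646 normalised counts in the libraries labelled homozygous, against 547, 587, 570 and 550 in the heterozygous ones, a gap that is narrow beside its level (log2 fold 0.21 ± 0.07, adjusted p = 0.159). mRpS33 had 107, 77.9, 104 and 78.5 in the libraries labelled homozygous, against 60.3, 61.0, 60.6 and 66.1 (0.54 ± 0.25, adjusted p = 0.367). In fat body alone 2 members lay entirely higher (4.77% of all genes) and 1, mRpS5, entirely lower (4.78%).

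Both called genes lie on chromosome 3, which carries dLmx1a (arm 3L) and, in heterozygotes, the balancer. Among all tested genes 3.52% of those on chromosome 3 and 1.03% of those on other chromosomes passed the threshold with ovaries, and 8.16% and 3.24% in fat body. Of the members, 38 lie on chromosome 3 and 34 elsewhere, of which 1 on chromosome 3 and 0 elsewhere were called with ovaries. In fat body it was 2 on chromosome 3 and 0 elsewhere. The members' median log2 fold with ovaries was 0.09 on chromosome 3 and 0.11 on the others, and in fat body it was 0.07 on chromosome 3 and 0.01 on the others. Homozygosity for delta1 and the absence of the balancer chromosome cannot be told apart in this design.

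No close neighbour of either called gene passed the threshold. Of the 10 tested genes nearest to mRpL9 (5 on each side, within 57.7 kb), 0 passed the threshold in either tissue. Their log2 folds ran from -0.38 to 0.30 with ovaries (median -0.04) and from -0.25 to 0.50 in fat body (median 0.17). Surf4 was the highest of them with ovaries (0.30 ± 0.09). It rose by 0.29 ± 0.09 in fat body, and stayed short of the threshold both times. The 10 around mRpS31 (within 107 kb) likewise held 0 called genes in either tissue, with folds of -0.23 to 0.81 with ovaries and -0.24 to 1.03 in fat body. The upper ends, 0.81 and 1.03, are both CG17027, whose standard error was 1.22. Of all chromosome 3 genes 3.52% were called with ovaries and 8.16% in fat body, so 10 neighbours are too few to show a lack of calls. Whether nearby genes share the change was not tested. mRpL9 shares 5 of its 794 exon bases with Fkbp39, listed as FK506-bp1, on the opposite strand, and that gene had folds of 0.24 ± 0.53 with ovaries and 0.30 ± 0.53 in fat body (not called). mRpS31 shares 48 of 1277 exon bases with mib1, whose folds were -0.04 ± 0.10 and -0.08 ± 0.10.

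**Figure D4:**
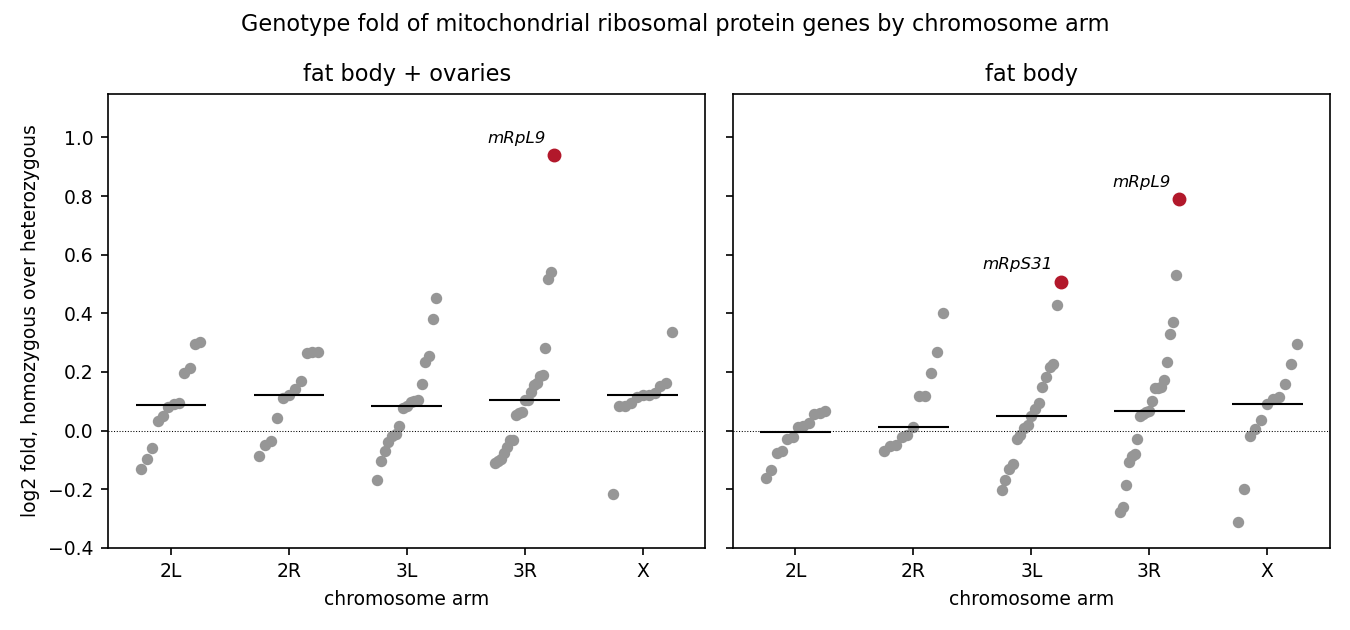
Log2 fold of each of the 72 genes, libraries labelled homozygous over heterozygous (vertical axis), by chromosome arm (horizontal axis), with ovaries (left) and in fat body alone (right). Points within an arm are sorted by fold, lines are medians and red points passed the threshold. mRpL9 on 3R (0.94 and 0.79) and mRpS31 on 3L (0.51 in fat body) are red, and the arm medians lie between -0.01 and 0.12.

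The second comparison is between fat body with ovaries and fat body alone, made separately in each genotype. In the libraries labelled homozygous 13 of the 72 genes were higher with ovaries and 0 lower, at log2 folds of 0.52 to 1.21. In heterozygotes 7 were higher, at 0.40 to 1.26, and 1 was lower. These shares, 18.1% higher for the libraries labelled homozygous and 9.72% for the heterozygous ones, stand beside 19.8% and 18.6% of all tested genes that were higher with ovaries. On the lower side they were 0 and 1.39%, beside 13.2% and 10.7% of all genes (33% and 29.3% in either direction). With the replicate block over all 16 libraries, 26 of 72 (36.1%) in the libraries labelled homozygous were higher and 0 lower. Of all genes 24.2% were higher and 23.9% lower in that fit (48% in either direction). With the block over the compared groups alone, added after the data were seen, 18 (25%) were higher and 0 lower. Of all 7824 genes 1769 were higher and 1907 lower in that fit. The higher share thus depended on the fit: just under the background in the main test, above it with the block over all 16 libraries. An unadjusted p under 0.05 was reached by 17 members in each genotype without the block. The median log2 fold of the members was 0.23 in both genotypes, against -0.05 for all genes in both, and 0.44 in the libraries labelled homozygous without fat body replicate 1. In bulk tissue, more cells of a type and more RNA per cell cannot be told apart, so these folds describe the mixture.

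The members called in both genotypes were mRpL27, mRpL23, mRpL19, mRpL2, mRpL39, mRpL1 and mRpS10. The 2 tissue contrasts share no library, but their standard errors are pooled over all 16 libraries. The calls in the 2 genotypes are therefore not independent. mRpL27 and mRpL23 passed in all 21 alternatives in both genotypes. In the libraries labelled homozygous mRpL19 passed in 21, mRpL2 and mRpL39 in 15 each, mRpL1 in 12 and mRpS10 in 9 of 21. In heterozygotes mRpL2 passed in 21, mRpS10 in 20, mRpL1 in 19, mRpL39 in 18 and mRpL19 in 11. Calls among these genes were lost in the libraries labelled homozygous without replicate 1, 3 or 4 with ovaries or fat body replicate 2, 3 or 4. In heterozygotes they were lost without replicate 1, 3 or 4 with ovaries or fat body replicate 1, 3 or 4.

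mRpL27, whose bacterial counterpart reaches the site of peptide bond formation, had 122, 95.1, 113 and 86.3 normalised counts with ovaries and 79.6, 70.4, 55.5 and 56.9 in fat body of the libraries labelled homozygous (log2 fold 0.66 ± 0.17, adjusted p = 0.00830). In heterozygotes it had 121, 98.8, 126 and 108 with ovaries, against 84.0, 58.3, 59.0 and 50.5 in fat body (0.86 ± 0.17, adjusted p = 0.00152). The tissues did not overlap in either genotype. The gene lies on 2L at 4458595 to 4459638, minus strand, and overlaps no other exon.

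mRpL23, which in bacteria sits at the exit of the peptide tunnel, had the largest fold of the 72 in both genotypes. In the libraries labelled homozygous it had 106, 65.3, 86.6 and 87.9 normalised counts with ovaries and 78.0, 21.8, 32.2 and 30.9 in fat body (log2 fold 1.21 ± 0.33, adjusted p = 0.0112). Here the fat body library numbered 1 overlapped the libraries with ovaries. In heterozygotes it had 63.4, 45.5, 76.4 and 81.7 with ovaries, against 40.6, 22.5, 26.7 and 20.4 in fat body (1.26 ± 0.33, adjusted p = 0.0102), without overlap. It lies on 3L at 2372844 to 2373704, minus strand, and shares 33 of its 699 exon bases with CG8993, which was called in neither genotype.

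mRpL19, a large-subunit protein with a bacterial counterpart, had the smallest adjusted p in the libraries labelled homozygous. There it had 221, 237, 232 and 261 normalised counts with ovaries and 145, 182, 147 and 161 in fat body (log2 fold 0.58 ± 0.13, adjusted p = 0.00326). In heterozygotes it had 269, 225, 258 and 253 with ovaries, against 144, 240, 193 and 193 in fat body (0.40 ± 0.13, adjusted p = 0.0329). Replicate 2 of heterozygous fat body overlapped the libraries with ovaries.

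mRpL2 belongs to the conserved core around the peptide bond site. It averaged 185 ± 23.9 normalised counts with ovaries and 131 ± 32.4 in fat body in the libraries labelled homozygous (log2 fold 0.52 ± 0.17), and 172 ± 15.6 and 111 ± 17.4 in heterozygotes (0.64 ± 0.17; SD, n = 4 each). mRpL1, which in bacteria forms a mobile stalk, averaged 182 ± 19.8 with ovaries and 119 ± 45.9 in fat body in the libraries labelled homozygous, and 170 ± 26.5 and 98.3 ± 27.7 in heterozygotes (0.68 ± 0.23 and 0.81 ± 0.23). mRpL39, specific to mitochondria, averaged 181 ± 36.5 with ovaries and 110 ± 55.1 in fat body in the libraries labelled homozygous, and 183 ± 5.58 and 104 ± 21.9 in heterozygotes (0.81 ± 0.25 and 0.83 ± 0.25). mRpS10, a small-subunit protein with a bacterial counterpart, averaged 114.6 ± 19.1 and 74.7 ± 31.8 in the libraries labelled homozygous, and 102 ± 12.1 and 56.0 ± 17.5 in heterozygotes (0.68 ± 0.25 and 0.89 ± 0.25). For these 4 genes the wide fat body SDs among libraries labelled homozygous come with high values in replicate 1, such as 191 for mRpL39 against 69.2 to 93.5 in the others.

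Called in the libraries labelled homozygous and not in heterozygotes were mRpL34, mRpL13, mRpL41, mRpL54, mRpL12 and mRpS18A, with log2 folds of 0.69 to 1.03. This split depends on the fit: in heterozygotes mRpL12 passed in 7 of 21 alternatives, mRpL13 in 6 of 20, mRpL34 in 4 of 20, mRpS18A in 4 of 21, mRpL54 in 3 of 21 and mRpL41 in 1 of 21. In the libraries labelled homozygous mRpL34 passed in 20 of 20 and mRpL12 in 11 of 21. None of the 6 passed the interaction test between genotypes. mRpL34 had 43.8, 53.8, 46.01 and 44.7 normalised counts with ovaries, against 26.01, 20.6, 26.3 and 35.9 in fat body of the libraries labelled homozygous, without overlap (0.79 ± 0.23, adjusted p = 0.0143). mRpL12 encodes the counterpart of the bacterial stalk protein that recruits translation factors. It had 233, 147, 182 and 192 with ovaries, against 219, 55.8, 70.2 and 78.9 in fat body (1.03 ± 0.36, adjusted p = 0.0397). Replicate 1 of that fat body group stands with the ovary libraries. mRpS18A had 0.71 ± 0.25 (adjusted p = 0.0423). mRpL13 (0.96 ± 0.27) shares exon bases with CG10602, whose own fold was 0.04 ± 0.09. mRpL41 (0.72 ± 0.24) shares 47 of 594 exon bases with CG11808 on the opposite strand, and CG11808 was itself higher with ovaries (0.50 ± 0.11, adjusted p = 0.00285).

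The one member lower with ovaries was mRpS5, in heterozygotes. The bacterial counterpart of this small-subunit protein lies where mRNA enters. It had 165, 204, 219 and 200 normalised counts with ovaries, against 240, 227, 255 and 247 in fat body, without overlap (log2 fold -0.30 ± 0.09, adjusted p = 0.02005). In the libraries labelled homozygous it had 220, 215, 198 and 209 with ovaries, against 223, 206, 206 and 227 in fat body, with overlap. The call was lost without heterozygous replicate 1 with ovaries (adjusted p = 0.0669) and without heterozygous fat body replicate 3 (0.0594) or 4 (0.0502). Its sign turned when libraries were scaled to equal totals (0.08, adjusted p = 0.521).

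Grouped by symbol, in the libraries labelled homozygous 11 of 46 large-subunit and 2 of 26 small-subunit genes (mRpS10 and mRpS18A) were higher with ovaries. In heterozygotes it was 6 of 46 and 1 of 26, with 1 of 26 lower. Whether the subunits differ was not tested. The most abundant members per kilobase had small folds. mRpL33 had tissue folds of -0.07 ± 0.13 in the libraries labelled homozygous and -0.09 ± 0.13 in heterozygotes. In the same order mRpL28 had -0.01 ± 0.07 and -0.16 ± 0.07, mRpL22 -0.16 ± 0.13 and -0.21 ± 0.13, and mRpL52 -0.01 ± 0.11 and -0.16 ± 0.11. None of these 8 values passed the threshold, although in heterozygotes mRpL22 was lower with the replicate block and mRpL28 with DESeq2. With equal totals mRpL28 was called higher with ovaries in both genotypes, and mRpL52 in the libraries labelled homozygous. mRpL9 did not pass in either genotype (0.22 ± 0.12 and 0.07 ± 0.12).

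Taken over the 72 genes, 58 had a positive fold in both genotypes, 10 a negative fold in both and 4 opposite signs. The libraries of the tissues did not overlap in 3 members in the libraries labelled homozygous, all higher (17.6% of all genes were higher and 9.43% lower by this count), and in 8 higher and 2 lower in heterozygotes (19.8% and 13.1% of all genes).

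**Figure D5:**
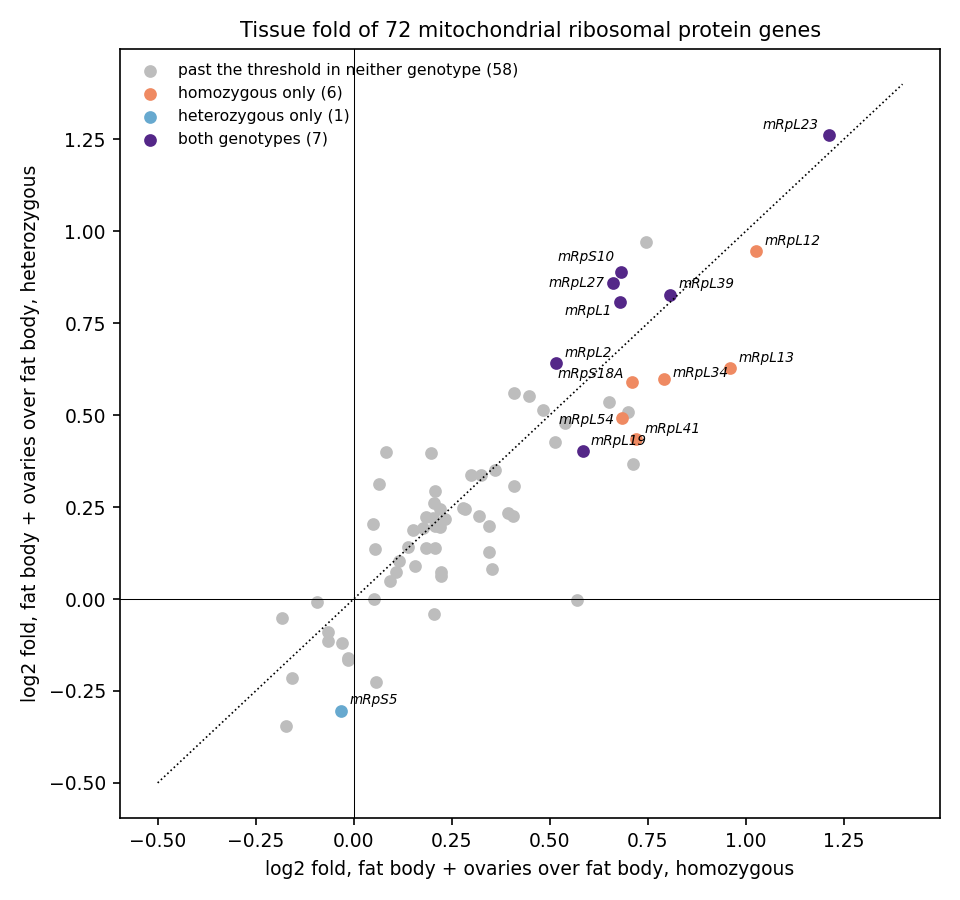
Log2 fold of fat body with ovaries over fat body alone for the 72 genes, in the libraries labelled homozygous (horizontal axis) and in heterozygotes (vertical axis). Colours mark genes past the threshold in both genotypes (7), in 1 of them (6 and 1) or in neither (58), and the dotted line marks equal folds. mRpL23 lies at the upper right (1.21 and 1.26), and mRpS5 is the only called gene below 0.

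The count of called members depends on the fit. Without fat body labelled homozygous replicate 1 the count was 38, and it was 5 to 7 without replicate 1, 3 or 4 with ovaries or replicate 2, 3 or 4 of fat body labelled homozygous. In heterozygotes the block gave 18 higher and 3 lower, beside 23.5% and 21.7% of all genes (45.1% in either direction), and the count was 3 without fat body replicate 3, and 5 without fat body replicate 4 or replicate 3 with ovaries. Scaling every library to equal totals raised the counts to 58 higher in the libraries labelled homozygous and 49 in heterozygotes. Under it the median over all genes became 0.37 in the libraries labelled homozygous and 0.34 in heterozygotes, and the members' median 0.65 and 0.61.

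Leaving out all 4 libraries numbered 1, chosen after the data were seen, gave 29 members higher and 0 lower with ovaries in the libraries labelled homozygous, and 24 higher and 2 lower in heterozygotes. mRpL19 then missed the threshold in heterozygotes (adjusted p = 0.138). Between genotypes it left mRpL9 called with ovaries, and mRpL9 and mRpS31 higher and mRpL3 lower in fat body.

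Ovary tissue was present where the labels say so. Of 12 germline markers 11 were higher and 1 lower with ovaries in each genotype, and higher too were 8 of 9 somatic ovary markers and 11 of 11 cell cycle genes. vas averaged 511 ± 49.0 with ovaries and 4.48 ± 1.78 in fat body of the libraries labelled homozygous (SD, n = 4 each), and ranged from 425 to 669 with ovaries and from 5.37 to 34.8 in fat body of heterozygotes. Sums over all 13 listed germline markers include osk, which is below the minimum. They were 8925 to 9838 normalised counts with ovaries labelled homozygous and 10274.5 to 11423 with ovaries heterozygous. In fat body they were 7330.1 to 9198 (labelled homozygous) and 8470.4 to 10173 (heterozygous). These sums are mostly tud, the one marker that was lower with ovaries, at 5739 to 6253 with ovaries and 7294 to 9169 in fat body of the libraries labelled homozygous, and 6861 to 8219 with ovaries and 8243 to 10108 in fat body of heterozygotes. bam, nos, krimp, tej and zpg, which act in germ cells, were at 0 in at least 1 library of each fat body group. Of 11 fat body markers 3 were lower with ovaries in the libraries labelled homozygous and 4 in heterozygotes. The part of these mixtures in the members' folds was not tested.

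The third comparison asks whether the tissue difference itself depends on genotype, which the interaction tests. Of the 72 genes 0 passed in either direction, where 0.0383% of all genes were higher and 0.0128% lower (0.0511% in either direction). At an unadjusted p under 0.05 there was 1, mRpS5, with an interaction of 0.27 ± 0.13 (adjusted p = 0.99995), and edgeR and DESeq2 each called 0. mRpS33 had the largest interaction, 0.57 ± 0.35. It shares 22 of its 491 exon bases with CG14881 on the opposite strand, whose interaction was 0.53 ± 0.22 (not called). The median over the members was 0.04, against -0.01 for all genes, and it has no stable sign: it was 0.21 without fat body labelled homozygous replicate 1 and -0.08 without fat body labelled homozygous replicate 2.

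The mitochondrial ribosome works with other nuclear-encoded parts of mitochondrial gene expression, and the shares of these that passed between tissues stand beside 19.8% of all genes higher in the libraries labelled homozygous and 18.6% in heterozygotes. Of 19 genes for mitochondrial translation and transcription factors 5 were higher and 2 lower with ovaries in the libraries labelled homozygous, and 3 and 1 in heterozygotes. As shares 26.3% were higher in the libraries labelled homozygous and 15.8% in heterozygotes, near those of all genes. Their median log2 folds were 0.37 and 0.22. TFAM, which packages mitochondrial DNA and promotes its transcription, had 0.50 ± 0.09 (adjusted p = 0.000596) in the libraries labelled homozygous and 0.52 ± 0.09 (adjusted p = 0.000497) in heterozygotes. The mitochondrial RNA polymerase gene (PolrMT, listed as mtRNApol) averaged 121 ± 28.0 normalised counts with ovaries and 57.5 ± 27.7 in fat body of the libraries labelled homozygous (1.13 ± 0.28), and 102 ± 16.9 and 38.6 ± 9.58 in heterozygotes (1.396 ± 0.28; SD, n = 4 each).

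Mitochondrial aminoacyl-tRNA synthetases load the tRNAs that this ribosome uses. Of 15 such genes 5 were higher and 1 lower with ovaries in the libraries labelled homozygous, and 2 and 1 in heterozygotes, with median log2 folds of 0.42 and 0.21. The higher shares were 33.3% and 13.3%. AspRS-m, listed as CG31739, had 0.80 ± 0.13 and 0.59 ± 0.13. PheRS-m, listed as Aats-phe, was the lower one in both, at -0.32 ± 0.08 and -0.31 ± 0.08.

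The nuclear genes of the respiratory chain, whose mitochondrial partners this ribosome makes, mostly missed the threshold. Of 66, 0 were higher and 1 lower in the libraries labelled homozygous, and 1 higher and 2 lower in heterozygotes, with medians of 0.01 and -0.08. The higher shares, 0% and 1.52%, lay below those of all genes. Lower in both was ND-15 (listed as CG11455), a subunit of complex I, at -0.27 ± 0.08 and -0.25 ± 0.08. Of 12 import and folding genes 1 was higher in each genotype, Tom70, a receptor on the mitochondrial surface (1.13 ± 0.35 and 1.12 ± 0.35), a share of 8.33%. Among 83 cytosolic ribosomal protein genes 4 were higher and 2 lower in the libraries labelled homozygous, and 3 and 1 in heterozygotes. The higher ones included RpS19b, RpS5b and RpS10a, paralogues with folds of 4.51 to 7.04.

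Regulators of growth were listed because Myc and Dref are known in Drosophila to raise genes of ribosomes and mitochondria. Dref averaged 733 ± 30.9 normalised counts with ovaries and 558 ± 22.3 in fat body of the libraries labelled homozygous (0.39 ± 0.07), and 637 ± 30.5 and 439 ± 30.8 in heterozygotes (0.54 ± 0.07). Myc, listed as dm, had 1.28 ± 0.35 and 1.84 ± 0.35. Of the 6 regulators 2 were higher in the libraries labelled homozygous and 4 in heterozygotes (33.3% and 66.7%), and 0 lower. The part of these regulators in the members' folds was not tested.

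Between genotypes the calls in these pathways were mostly cytosolic ribosomal protein genes. With ovaries the factors, synthetases, import genes and respiratory chain genes had 0 called members, beside 2.11% of all genes. Of 83 cytosolic ribosomal protein genes 2 were higher (2.41%, beside 0.92% of all genes). In fat body alone the same 4 mitochondrial lists again had 0 called members, beside 5.39% of all genes. Of the 6 growth regulators 1, Dref, was higher in that tissue (0.35 ± 0.07, adjusted p = 0.00946). In fat body 24 of the 83 cytosolic ribosomal protein genes were higher and 1 lower in the libraries labelled homozygous (28.9% and 1.2%). These shares stand beside 2.29% and 3.11% of all genes, and the median log2 fold of the list was 0.32. The mitochondrial ribosomal genes had 2 of 72 higher there and a median of 0.05. Whether the 2 kinds of ribosomal gene differ in this was not tested. The 24 calls come from the main test and cannot all hold in every fit. Fitted on only the compared groups, 21 of all 7824 genes were higher in fat body, fewer than these 24, and 55 were lower. Scaled to equal totals, 69 of all genes were higher and 427 lower. The cytosolic list was not counted in those fits.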

How the data were processed

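RNA was measured by Illumina sequencing in 16 libraries, 4 in each of 4 groups taken from the sample titles. The genotype field of the homozygous samples counts the allele number upwards from sample to sample, so it was not used. Per the submitters' processing notes, tools included Trimmomatic 0.36, STAR 2.5.2b and featureCounts of Subread 1.5.0p3, and the build was dm6. The values deposited by the authors are a signal, gene counts divided by a DESeq2 size factor per library, and are called normalised counts here. Whole reads were recovered from them by the value of 1 read in each library. Of the values above 0, 100% came out whole within 1e-06.

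The main test was limma 3.58.1 (R 4.3.3) on log2(normalised count + 1) over all 16 libraries with a mean per group, for 7824 genes averaging at least 10. Every p-value and adjusted p comes from this test unless another is named, with Benjamini-Hochberg adjustment over all 7824 genes and a threshold of 0.05. Folds are on this log2 scale with its standard error, which understates changes of low genes. edgeR 4.0.16 (quasi-likelihood test) and DESeq2 1.42.0 were run on the recovered reads as alternatives. edgeR called 64 genes higher and 91 lower between genotypes with ovaries, and 128 and 229 in fat body. Between tissues it called 1545 and 952 in the libraries labelled homozygous, and 1431 and 877 in heterozygotes. Other alternatives were pseudocounts of 0.5 and 5, no minimum, a minimum of 50, equal totals, TMM scaling, fits on the compared groups, a replicate block and leaving out libraries. The fitting was tested on simulated data.

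Libraries with the same number deviated together, with correlations of 0.253, 0.417, 0.173 and 0.415 between genotypes with ovaries and 0.676, 0.385, 0.291 and 0.213 in fat body. Between tissues they were 0.610, 0.424, 0.198 and 0.476 in the libraries labelled homozygous. In heterozygotes 2 of the 4 were under 0.1. Between genotypes with ovaries, replicate 4 labelled homozygous and heterozygous replicate 3 correlated at 0.325, above the 0.173 of the libraries numbered 3. The number thus pairs the first 3 of these contrasts, less clearly for number 3 with ovaries. Fits with the replicate block are given beside the main test. The main test itself has no block, so its standard errors and adjusted p leave this pairing out. The labels do not say what the number marks.

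The 72 genes and the pathway and marker lists were chosen with earlier results of these data known. Genes named are, per contrast, those past the threshold with the smallest p (up to 10 in each direction, and 2 where none passed), mRpL9, the 4 highest and 4 lowest per kilobase and those nearest the minimum. From each pathway list up to 3 genes are named. Other genes, such as mRpL12, mRpS11, mRpL3, mRpL43 and mRpL51, were chosen after their values were seen. Coordinates, exon overlaps and coding lengths (longest coding sequence) come from the Ensembl 115 annotation of the same assembly, in place of protein lengths. Older symbols were matched through RefSeq names. Promoter motifs and mitochondrial genome genes were not analysed here.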

Additional observations from a re-analysis of the deposited data

Results flagged for a closer look

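Of 100 groups of 4 libraries examined, 3 held a library far from the other 3 of its group, and chance gives about 1 in 20. In heterozygous fat body, the summed level of the 72 genes was 11589.5 normalised counts in replicate 1, against 9230.1 to 9465 in the others. In the same library mRpL1 stood at 139.6, against 81.9 to 88.1 in the others. In heterozygous fat body with ovaries, mRpS33 stood at 66.1 in replicate 4, against 60.3 to 61.0 in the others, a narrow group in which the highest library lies apart.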

How the results depend on the processing

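Counts of called members between genotypes with ovaries were 3 with DESeq2 and 2 with the replicate block, and 1 whichever library was left out. In fat body the count was 1 with no minimum, equal totals, TMM scaling, edgeR, only the compared groups, or without heterozygous fat body replicate 2 and fat body labelled homozygous replicate 1 together, and 1 to 2 when single libraries were left out. Between tissues in the libraries labelled homozygous it was 7 with no minimum, 58 with equal totals and 37 without those 2 libraries. It was 4 with only the compared groups, 26 with the replicate block and 18 with the compared groups and the block. It was 29 without the 4 libraries numbered 1, and 5 to 38 when single libraries were left out. In heterozygotes it was 49 with equal totals, 21 with the replicate block, 14 with the compared groups and the block, 26 without the libraries numbered 1, and 3 to 12 when single libraries were left out. The settings combining the compared groups with the block, and leaving out the libraries numbered 1, were added after the data were seen. The interaction had 0 to 0 called members under leaving out single libraries. mRpS5 in heterozygotes turned to 0.084 with equal totals. mRpL28 in heterozygotes, outside the tally below, was called lower with DESeq2 and higher with equal totals. Over all settings of the genes named by rule (26 main values), 487 values kept direction and side of the threshold, 70 lost the call, 4 gained it and 1 reversed. The 487 include the interactions of mRpL9, mRpS5 and mRpS33, each past the threshold in 0 of 27 settings. The tally leaves out mRpS10, mRpL12 and mRpS18A between tissues in the libraries labelled homozygous, whose calls held in 9, 11 and 13 of 21 settings. Equal totals moved the members' tissue medians to 0.65 in the libraries labelled homozygous and 0.61 in heterozygotes, and the other 109 medians moved by less than the spread between replicates. The causes were not tested. At 17 to 871 reads per gene and library, small folds of low members cannot be resolved.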
